A study of Mus musculus with 2 samples.

Results

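The genes described here are 42 genes that drive or restrain cell division, namely the cyclins and kinases of the G1 phase, the CDK inhibitors, the E2F factors with their pocket proteins and Myc, the genes that copy DNA or supply its nucleotides, and the genes of G2 and mitosis. They were chosen by name, as rows of both expression tables whose identifier equals one of these 42 symbols, and all 42 were found among 35522 listed features. No measured value entered this rule, but the genes were chosen with earlier results of these data known. In PBS-treated and exosome-treated neutrophils the genes of DNA replication, the E2F family and the mitotic genes gave different pictures. Transcripts for DNA copying were higher with exosomes, led by Pcna at 12.33 and 42.61 RPKM and Rrm1 at 0.84 and 3.43 RPKM. Of all features that reached 0.25 RPKM in each library, 73.0% were higher too. Against features of like level the median log2 difference of the replication genes was 0.09. E2f2 fell from 32.06 to 9.03 RPKM, whereas Rbl1, a pocket protein that binds E2F factors, rose from 0.46 to 2.61 RPKM. None of the 9 measurable mitotic genes reached a 2-fold change on the deposited scale, where 31.5% of all such features rose and 5.62% fell. Mki67 stood at 5.62 and 3.91 RPKM. Once the libraries were centred on each other, 3 of these 9 genes fell, beside 13.2% of all such features. On that scale 2 of 10 replication genes rose, beside 16.8%.

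Neutrophils carrying CD11b, high for Ly-6G and low or negative for Ly-6C, were sorted from mouse bone marrow and grown in complete RPMI-1640. Both cultures received 10 ng/ml GM-CSF, which keeps myeloid cells alive and growing. The PBS group was given the buffer alone and the exosome group was given 20 µg/ml tumor exosomes, each for 3 days. The exosomes came from sphere-derived cancer stem cells (SDCSCs), which were spheres raised without serum from CT26, a colon carcinoma line of the mouse, so a single tumor line stands behind the treatment. Each group held 1 library, so every value below lacks a replicate error. The methods name Balb/C mice of several weeks of age for the animal work, accept sorted cells above a set purity, and give neither a genotype nor the number of marrow donors behind a library.

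A cell enters division when D-type cyclins with Cdk4 or Cdk6, and then E-type cyclins with Cdk2, phosphorylate the retinoblastoma protein and its pocket protein relatives, which releases E2F factors. The freed E2F factors switch on the genes of DNA replication, and a later wave of genes carries the cell through G2 and mitosis. Many promoters of that later wave hold a CHR, an element through which they are repressed in resting cells, often beside CCAAT boxes. Neutrophil precursors divide in the bone marrow, whereas the mature cells have left the cycle, hold high levels of CDK inhibitors and live for a short time.

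The elements named above can be read in the promoters of these genes, and they are shown here since they are known elements of the E2F wave and of the mitotic wave. The RefSeq promoter table for GRCm38.p6, which spans 250 bases before to 50 bases after each gene start, had entries for 34 of the 42 genes. An E2F element was searched as TTTCGCGC or TTTGGCGC on both strands, and matches on opposite strands may overlap. It was present for 7 of the 34 genes (20.6%), namely E2f2, Rbl1, Mcm3, Mcm5, Mcm6, Mcm7 and Cdk1, and for 0.929% of all 27025 genes of the table. The share over single promoters was 0.813% of 32851. In the windows of 30 bases that follow, 5′ to 3′ along the gene's own strand, the capitals mark the E2F element.
Rbl1, chr2:157204534-157204563, minus strand: aagaaggcgatTTTCGCGCgctttgtcgcg
E2f2, chr4:136172294-136172323, plus strand: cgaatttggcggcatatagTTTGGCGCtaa
Mcm3, chr1:20820263-20820292, minus strand: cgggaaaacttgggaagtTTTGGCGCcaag
Mcm5, chr8:75109345-75109374, plus strand: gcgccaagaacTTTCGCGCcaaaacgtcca
Mcm6, chr1:128359734-128359763, minus strand: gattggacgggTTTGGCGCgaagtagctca
Mcm7, chr5:138171849-138171878, minus strand: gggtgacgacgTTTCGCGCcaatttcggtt
Cdk1, chr10:69353025-69353054, minus strand: tttccgctcccTTTCGCGCtctgcgctccc

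The CHR, searched as TTTGAA on both strands, was found for 11 of the 34 genes (32.4%) against 20.2% of all genes of the table. By class it was found for 8 of 11 genes of G2 and mitosis (Mki67, Top2a, Ccnb2, Cdk1, Bub1b, Aurka, Plk1 and Cdc20) and for 1 of 10 replication genes, Mcm2. The other 2 were E2f2 and E2f3, and the match of E2f2 lay in the second of its promoter entries. The E2F element was found for 4 of 10 replication genes and 1 of 11 genes of G2 and mitosis. The CCAAT box, searched as CCAAT on both strands, was found for 25 of the 34 genes (73.5%) against 41.1% of all genes, and for 10 of the 11 genes of G2 and mitosis. These elements are short, base composition was not matched, and a match is a description of the letters only. The capitals in the next windows mark the CHR.
Mki67, chr7:135716478-135716507, minus strand: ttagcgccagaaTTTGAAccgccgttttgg
Ccnb2, chr9:70421533-70421562, minus strand: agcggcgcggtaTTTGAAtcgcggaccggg
Cdk1, chr10:69352966-69352995, minus strand: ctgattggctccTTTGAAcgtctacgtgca
Cdc20, chr4:118437344-118437373, minus strand: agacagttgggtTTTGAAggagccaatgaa
Plk1, chr7:122159453-122159482, plus strand: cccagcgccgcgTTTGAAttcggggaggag

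A longer stretch of 200 bases before the gene start is given for Rbl1, the gene with the highest ratio here, and for Ccnb2, a mitotic cyclin with 3 CCAAT boxes on its own strand. The capitals mark the E2F element in Rbl1, and a CHR match followed by the CCAAT boxes in Ccnb2. This CHR match begins 167 bases before the gene start and is not the one in the window above, which begins at base 5 after the start.
Rbl1, chr2:157204535-157204734, minus strand: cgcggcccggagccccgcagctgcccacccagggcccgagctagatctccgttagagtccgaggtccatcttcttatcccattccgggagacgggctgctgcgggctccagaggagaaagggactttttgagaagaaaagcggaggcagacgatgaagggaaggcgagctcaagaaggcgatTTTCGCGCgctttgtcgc
Ccnb2, chr9:70421555-70421754, minus strand: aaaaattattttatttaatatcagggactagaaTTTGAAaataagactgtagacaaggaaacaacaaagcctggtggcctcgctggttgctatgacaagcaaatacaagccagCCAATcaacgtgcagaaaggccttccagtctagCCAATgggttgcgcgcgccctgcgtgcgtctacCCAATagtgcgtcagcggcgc

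The values of all genes are RPKM, reads scaled by the length of the exons and by the mapped reads of the library, so levels can be compared between genes. The PBS library held an estimated 66.0 M mapped reads (M for mega) and the exosome library 79.1 M, as read from low values that stand for 1 read. A ratio is exosome RPKM over PBS RPKM with no pseudocount, and it is read only for the 34 genes that reached 0.25 RPKM in each library. A gene is said to have risen at a ratio of at least 2 and to have fallen at a ratio of at most 0.5, which are limits of size and not tests. The interval after a log2 ratio is a 95% exact Clopper-Pearson interval of the estimated reads and covers counting error alone. It leaves out the spread between cultures, animals and libraries, and it would be wider if the exon model behind the RPKM was shorter than the longest transcript used for the estimate.

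Of the 34 genes, 8 rose (23.5%) and 2 fell (5.88%), while 24 stayed within 2-fold. Over all 9698 features kept by the same rule, 31.5% rose and 5.62% fell. Both shares lie near those of the background. A ratio of at least 4 was reached by Rbl1 and Rrm1 (background 8.52%), and no gene fell to 0.25 or below (background 1.14%). In sign alone, 23 of the 34 were higher with exosomes and 11 were lower, beside 73.0% and 26.8% of all features kept. The median log2 ratio was 0.50, beside 0.53 over all features kept, and 16 of the 34 lay above that general median. The median of the features kept was thus shifted by 0.53 on the log2 scale. With this median set to 0, the split of 8 risen and 2 fallen genes became 4 and 7, beside 16.8% and 13.2% of all features kept.

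**Figure D1:**
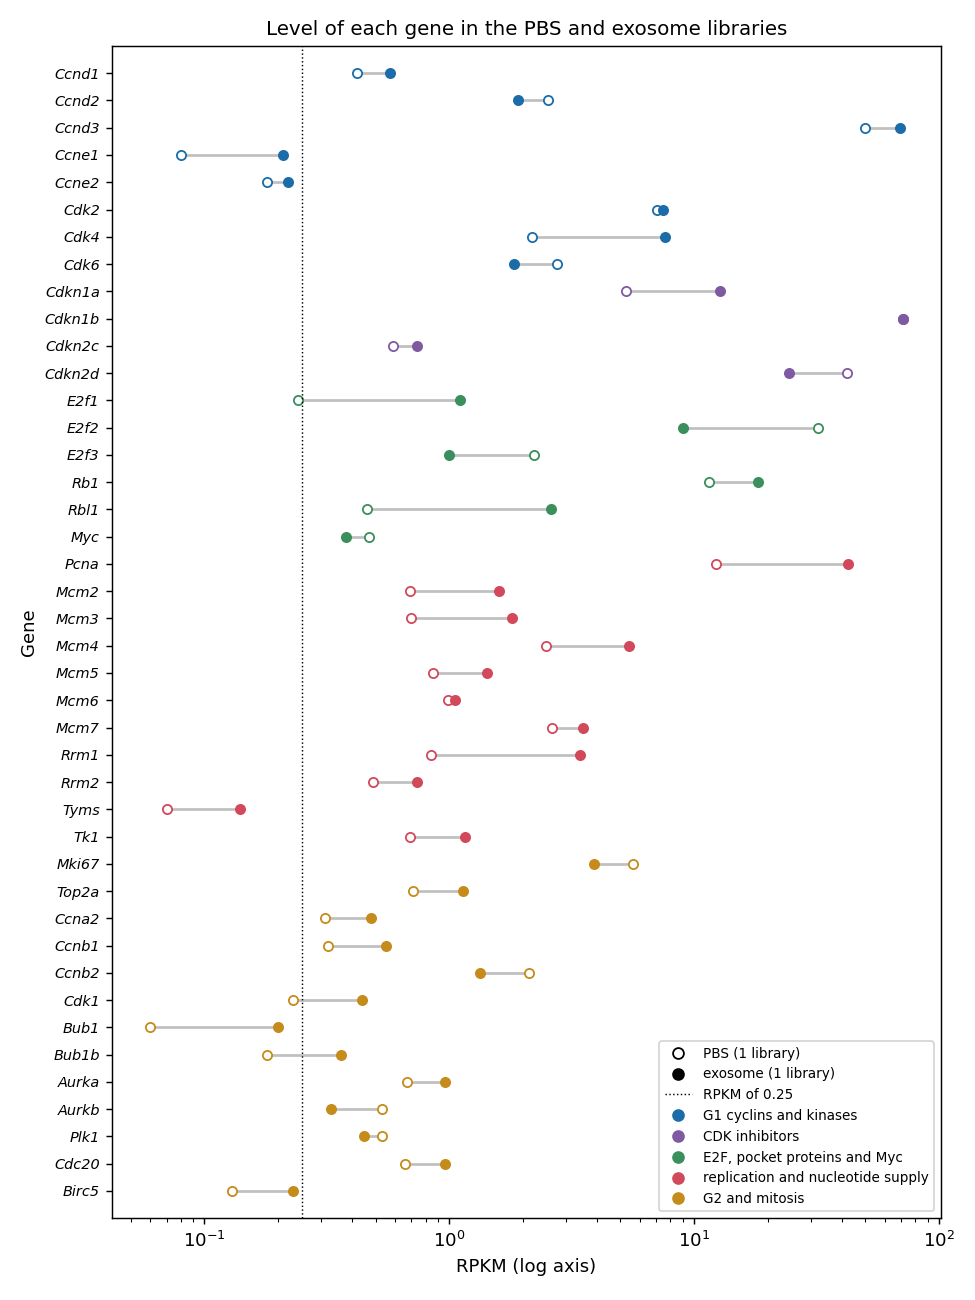
Level of each of the 42 genes in RPKM (log axis), with open circles for the PBS library and filled circles for the exosome library, coloured by class; the dotted line is the minimum of 0.25 RPKM. Replication genes (red) have the filled circle to the right throughout, E2f2 has it far to the left, and the mitotic genes (ochre) are mixed around low levels.

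Many of the genes were expressed at low levels. In PBS 16 of the 42 reached 1 RPKM, and with exosomes 25 did, while the same share over all features is not given here. No gene was at 0 in either library. The summed level of the 42 genes was 265.78 RPKM in PBS and 304.63 RPKM with exosomes, and 3 genes that restrain or start the cycle in G1 made up most of it, namely Cdkn1b, Ccnd3 and Cdkn2d. Counting error was wide for the rare transcripts. Of the 10 genes that rose or fell, 7 had an interval wholly past the 2-fold limit, and Mcm2, Mcm4 and E2f3 did not.

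The genes that copy DNA and supply its nucleotides were the class with the highest median. All 10 of its measurable genes were higher in exosome-treated neutrophils (73.0% of all features kept were) and 5 of them rose (background 31.5%), with a median log2 ratio of 0.94. After median centring 2 of the 10 were called up (background 16.8%) at a median of 0.41, and against features of like level 1 was up (background 13.3%) and 1 down (background 13.4%) at a median of 0.09. Their sum with Tyms included was 22.78 RPKM in PBS and 62.92 RPKM with exosomes, a ratio of 2.76. Much of that sum was Pcna, and without Pcna the sum was 10.45 and 20.31 RPKM, a ratio of 1.94. The number of the class at 1 RPKM or more was 3 in PBS and 9 with exosomes. The share of all features at 1 RPKM or more in each library is not given here.

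Pcna, the sliding clamp that holds DNA polymerases on their template, stood at 12.33 RPKM in PBS and 42.61 RPKM with exosomes. The log2 ratio was 1.79 (counting interval 1.70 to 1.88). Pcna (chr2:132249162-132253314, minus strand, GRCm38) was the only replication gene of the list above 10 RPKM in either library, and its share of the class went from 54.1% to 67.7%. Pcna also serves in DNA repair outside S phase, and GENCODE M21 names Pcna-ps1 and Pcna-ps2, 2 pseudogenes whose reads could be shared with it.

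The subunits of ribonucleotide reductase, the enzyme that makes deoxyribonucleotides, were low and differed in how far they moved. Rrm1, the large subunit (chr7:102441695-102469771, plus strand), stood at 0.84 RPKM in PBS and 3.43 RPKM with exosomes, a log2 ratio of 2.03 (1.85 to 2.21). Rrm2, the small subunit whose level follows S phase, stood at 0.49 and 0.74 RPKM, a log2 ratio of 0.59 (0.16 to 1.03). These intervals do not overlap, and Rrm1 over Rrm2 was 1.71 in PBS and 4.64 with exosomes. Tk1, the salvage kinase for thymidine, stood at 0.69 and 1.16 RPKM with a log2 ratio of 0.75 (0.43 to 1.09). Tyms, which makes thymidylate, was below the minimum in both libraries at 0.07 and 0.14 RPKM, or about 18 and 43 estimated reads.

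The 6 subunits of the MCM helicase, which form a ring in equal numbers, were unequal in both level and ratio. Mcm3 stood at 0.70 and 1.80 RPKM (log2 ratio 1.36, 1.11 to 1.64). Mcm2 stood at 0.69 and 1.60 RPKM (1.21, 0.95 to 1.48). Mcm4 stood at 2.49 and 5.43 RPKM (1.12, 0.99 to 1.26). These 3 rose, though the intervals of Mcm2 and Mcm4 reached below 2-fold. The other 3 subunits stayed within 2-fold, with Mcm5 at 0.86 and 1.43 RPKM, Mcm7 at 2.63 and 3.53 RPKM and Mcm6 at 0.99 and 1.05 RPKM. The interval of Mcm6 was -0.14 to 0.32 and held 0 on the deposited scale, where the median of all features kept was 0.53. Against features of like level Mcm6 lay at -1.03. The helicase genes summed to 8.36 RPKM in PBS and 14.84 RPKM with exosomes, and the E2F element shown above was in the promoters of Mcm3, which rose, and of Mcm5, Mcm6 and Mcm7, which stayed within 2-fold.

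The other genes of origin licensing and of the replication fork were taken as a list of 42, of which 36 were measurable. Of these 20 rose (55.6%, background 31.5%), and Mcm10 alone fell (2.78%, background 5.62%), from 1.37 to 0.40 RPKM. The median log2 ratio was 1.12, beside 0.53 over all features kept. Against features of like level the median difference was only 0.21, and 23 of the 36 lay above such features. A ratio of at least 4 was reached by 7 of them (background 8.52%), and 6 are named here. Rfc4, a subunit of the clamp loader that places Pcna on DNA, stood at 0.25 and 2.28 RPKM, and Rfc5 of the same complex at 0.80 and 3.44 RPKM. Orc2 and Orc5 of the origin recognition complex stood at 0.36 and 2.93 RPKM and at 0.57 and 3.39 RPKM. Rpa3, which coats single-stranded DNA, stood at 1.54 and 6.85 RPKM, and Pold2, an accessory subunit of DNA polymerase delta, at 0.45 and 1.86 RPKM. With the replication genes of the main list the count was 25 risen of 46 (54.3%) and 1 fallen, beside 31.5% and 5.62%. Their median log2 ratio was 1.12, and their median difference from features of like level was 0.19.

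**Figure D2:**
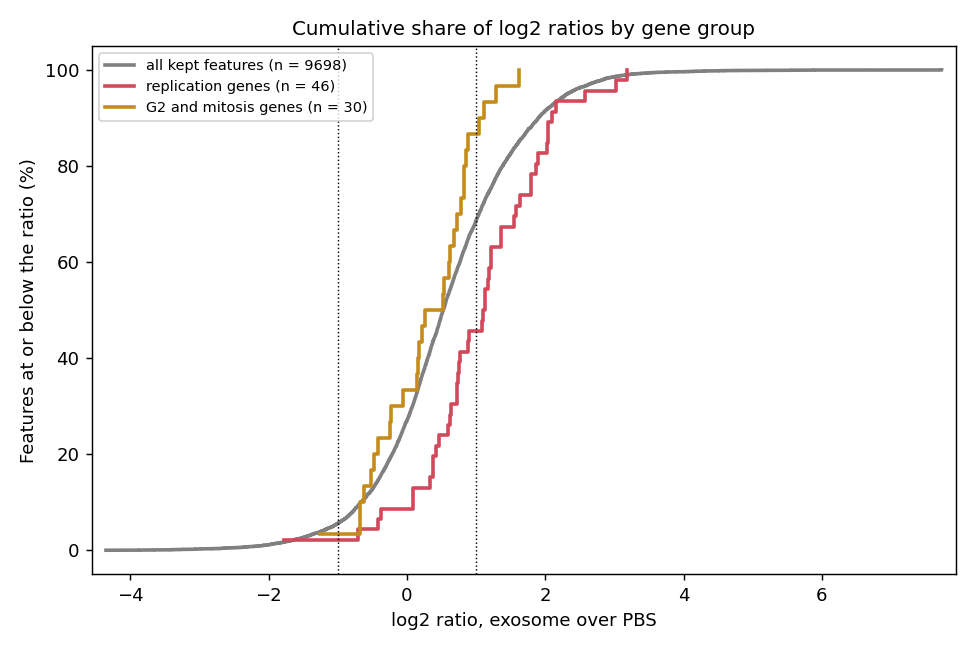
Cumulative share in percent of the log2 ratios of exosome over PBS for all 9698 features kept (grey), 46 replication genes (red) and 30 genes of G2 and mitosis (ochre), with dotted lines at 2-fold. At a log2 ratio of 1 the red curve lies below the grey one and the ochre curve lies above it. There 25 of 46 red genes and 4 of 30 ochre genes lie at or past 2-fold, beside 31.5% of all features kept.

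Of the E2F factors that activate the cycle, both measurable members fell, and E2f1 was below the minimum in PBS. E2f2 (chr4:136172394-136196057, plus strand), an activator of S phase genes, stood at 32.06 RPKM in PBS and 9.03 RPKM with exosomes. It fell by 1.83 on the log2 scale (interval -1.88 to -1.77), and 1.56% of the features kept had a lower ratio. E2f3 stood at 2.22 and 1 RPKM, and it fell by 1.15 on the log2 scale (-1.33 to -0.98), an interval that includes 2-fold. E2f1 stood at 0.24 and 1.11 RPKM, just under the minimum in PBS, or about 44 and 242 estimated reads. E2f2 made up 92.9% of the summed RPKM of these 3 factors in PBS and 81.1% with exosomes, while the share of E2f1 went from 0.70% to 9.96%. Their sum was 34.52 RPKM in PBS and 11.14 RPKM with exosomes.

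The pocket proteins bind E2F factors and hold their targets silent. Rbl1 encodes p107, itself a target of E2F, and stood at 0.46 RPKM in PBS and 2.61 RPKM with exosomes. Its log2 ratio of 2.50 (2.25 to 2.76) was the highest among the 34 genes, above 96.3% of all features kept. Rb1, the retinoblastoma protein, stood at 11.47 and 18.2 RPKM with a log2 ratio of 0.67 (0.61 to 0.73). Rb1 made up 96.1% of the sum of Rb1 and Rbl1 in PBS and 87.5% with exosomes. The other pocket protein, Rbl2 (p130), which is no gene of the main list, stood at 10.91 and 12.68 RPKM, a log2 ratio of 0.22. Myc, a transcription factor that promotes growth and entry into the cycle, was low at 0.47 and 0.38 RPKM, and its interval of -0.80 to 0.19 held 0. As a class, the E2F factors, pocket proteins and Myc had 5 measurable genes with a median log2 ratio of -0.31, with 1 risen and 2 fallen (background 31.5% and 5.62%). That direction rests on the minimum, since with 0.25 RPKM in either library and a pseudocount of 0.25, which brings in E2f1 as a risen gene, the 6 genes had a median of 0.23 with 2 risen and 1 fallen (background 28.4% and 5.20%).

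Among the cyclins of G1 Ccnd3, a D cyclin typical of blood cells, was far above the others. Ccnd3 (chr17:47505051-47599691, plus strand) stood at 49.74 RPKM in PBS and 69.13 RPKM with exosomes, a log2 ratio of 0.47 (0.44 to 0.51). It made up 94.4% of the D cyclins in PBS and 96.5% with exosomes. Ccnd2 was lower with exosomes, at 2.52 and 1.91 RPKM (-0.40, -0.53 to -0.27). Ccnd1 was low in both, at 0.42 and 0.57 RPKM (0.44, 0.08 to 0.81). The E-type cyclins, which act with Cdk2 at the start of S phase, were below the minimum. Ccne1 stood at 0.08 and 0.21 RPKM, or about 11 and 33 estimated reads, and Ccne2 at 0.18 and 0.22 RPKM.

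The kinases that pair with the D cyclins moved apart. Cdk4 (chr10:127063534-127067920, plus strand) stood at 2.18 RPKM in PBS and 7.61 RPKM with exosomes, and rose by a log2 ratio of 1.80 (1.62 to 1.99). Cdk6 stood at 2.76 and 1.83 RPKM, a log2 ratio of -0.59 (-0.69 to -0.50). Cdk4 over Cdk6 was therefore 0.79 in PBS and 4.16 with exosomes, and the share of Cdk4 in their sum went from 44.1% to 80.6%. Part of Cdk4 cannot be told from its neighbour, since 19.7% of its exon bases overlap Tspan31 on the opposite strand, which stood at 0.60 and 1.92 RPKM. Counting by strand is not given in the sources used here. Cdk2, the partner of the E and A cyclins, stood at 7.07 and 7.45 RPKM, and its interval of -0.02 to 0.17 held 0.

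**Figure D3:**
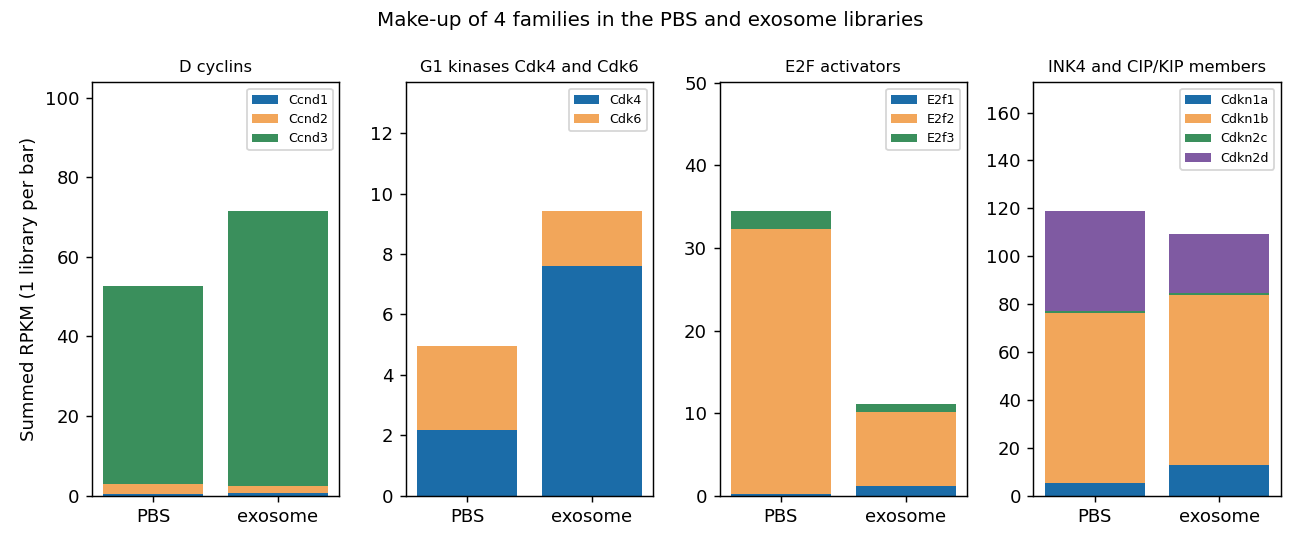
Summed RPKM of 4 families in the PBS and exosome libraries, stacked by gene, with 1 library per bar and a separate axis from 0 for each family. The D cyclins are almost wholly Ccnd3 in both bars, the kinase bar changes from mostly Cdk6 to mostly Cdk4, the E2F bar shrinks from 34.52 to 11.14 RPKM mainly in its E2f2 part, and the inhibitor bar keeps its Cdkn1b part.

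The CDK inhibitors were the most abundant class, with a sum of 119.06 RPKM in PBS and 109.11 RPKM with exosomes. Cdkn1b encodes p27, which holds cells out of the cycle, and was the most abundant of the 42 genes in both libraries. It stood at 71.21 and 71.18 RPKM, and its interval of -0.03 to 0.03 was the narrowest of all. Cdkn1a encodes p21, a target of p53, and stood at 5.29 and 12.77 RPKM with a log2 ratio of 1.27 (1.15 to 1.40). Cdkn2d encodes p19, an inhibitor of Cdk4 and Cdk6, and was lower with exosomes at 41.97 and 24.42 RPKM (-0.78, -0.85 to -0.71). Cdkn2c, its relative p18, was low at 0.59 and 0.74 RPKM, and its interval of -0.05 to 0.72 held 0. The inhibitor that rose was therefore a minor part of the class, at 4.44% of the sum in PBS and 11.7% with exosomes, whereas Cdkn1b and Cdkn2d together were the bulk of it in both.

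Mitotic genes were low, and none of the 9 measurable ones rose or fell on the deposited scale (background 31.5% and 5.62%). After median centring 3 of the 9 were called down (background 13.2%), namely Mki67, Ccnb2 and Aurkb, and the same 3 were down against features of like level (background 13.4%). On the deposited scale their median log2 ratio was 0.52, beside 0.53 over all features kept. Of the 9, 5 were higher and 4 lower, beside 73.0% and 26.8% of all features kept. All 13 summed to 12.07 RPKM in PBS and 11.34 RPKM with exosomes. Mki67, which encodes the proliferation antigen Ki-67, was the most abundant and was lower with exosomes, at 5.62 and 3.91 RPKM with a log2 ratio of -0.52 (-0.59 to -0.45). Top2a, the topoisomerase that untangles sister chromatids, was higher, at 0.71 and 1.14 RPKM with a log2 ratio of 0.68 (0.45 to 0.91). The ratio of Mki67 to Top2a was 7.92 in PBS and 3.43 with exosomes. Without Mki67 the class summed to 6.45 and 7.43 RPKM.

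The mitotic cyclins did not move together. Ccnb2 was lower with exosomes, at 2.12 and 1.33 RPKM with a log2 ratio of -0.67 (-0.98 to -0.37). Ccnb1 was higher, at 0.32 and 0.55 RPKM (0.78, 0.28 to 1.27), and so was Ccna2, at 0.31 and 0.48 RPKM (0.63, 0.17 to 1.10). The intervals of the B cyclins lie on opposite sides of 0. Ccnb1, Ccnb2, Ccnd3 and Tyms, like Pcna, have a named pseudogene in GENCODE M21, and the authors' treatment of reads that match several places is not given in the sources used here. Ccna2 shares 12.5% of its exon bases with Exosc9 on the opposite strand, which stood at 1.27 and 5.42 RPKM.

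The kinases and regulators of mitosis lay below 1 RPKM in both libraries. Aurka, the kinase of the spindle poles, stood at 0.67 and 0.96 RPKM, while Aurkb, the kinase of the chromosomal passenger complex, stood at 0.53 and 0.33 RPKM (-0.68, -1.23 to -0.13). Cdc20, the activator of the anaphase promoting complex, stood at 0.66 and 0.96 RPKM. Plk1, a kinase of mitotic entry, stood at 0.53 and 0.45 RPKM, with an interval of -0.72 to 0.23 that held 0. Birc5, Bub1, Bub1b and Cdk1 were below the minimum in PBS. Cdk1, the kinase that drives mitosis, stood at 0.23 and 0.44 RPKM, or about 66 and 152 estimated reads. Bub1 and Bub1b of the spindle checkpoint stood at 0.06 and 0.20 RPKM and at 0.18 and 0.36 RPKM, and Birc5, the partner of Aurkb, at 0.13 and 0.23 RPKM. Of 43 further genes of mitosis and the spindle 22 were below the minimum. Of the 21 measurable ones 4 rose (19.0%) and 1 fell (4.76%), beside 31.5% and 5.62% of all features kept. Their median log2 ratio was 0.26, beside 0.53 over all features kept. The fallen gene was Kif23, a motor of the midbody, from 9.28 to 3.87 RPKM.

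The 8 genes below the minimum, namely Ccne1, Ccne2, E2f1, Tyms, Cdk1, Bub1, Bub1b and Birc5, were all higher with exosomes. All 8 were below the minimum in PBS, a selection that favours higher values with exosomes, and the counting interval of Ccne2 held 0. The share of higher ones among all features below the minimum is not given here. These 8 genes are given by their values only. At such levels the rounding of the tables to 0.01 RPKM adds to the counting error.

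**Figure D4:**
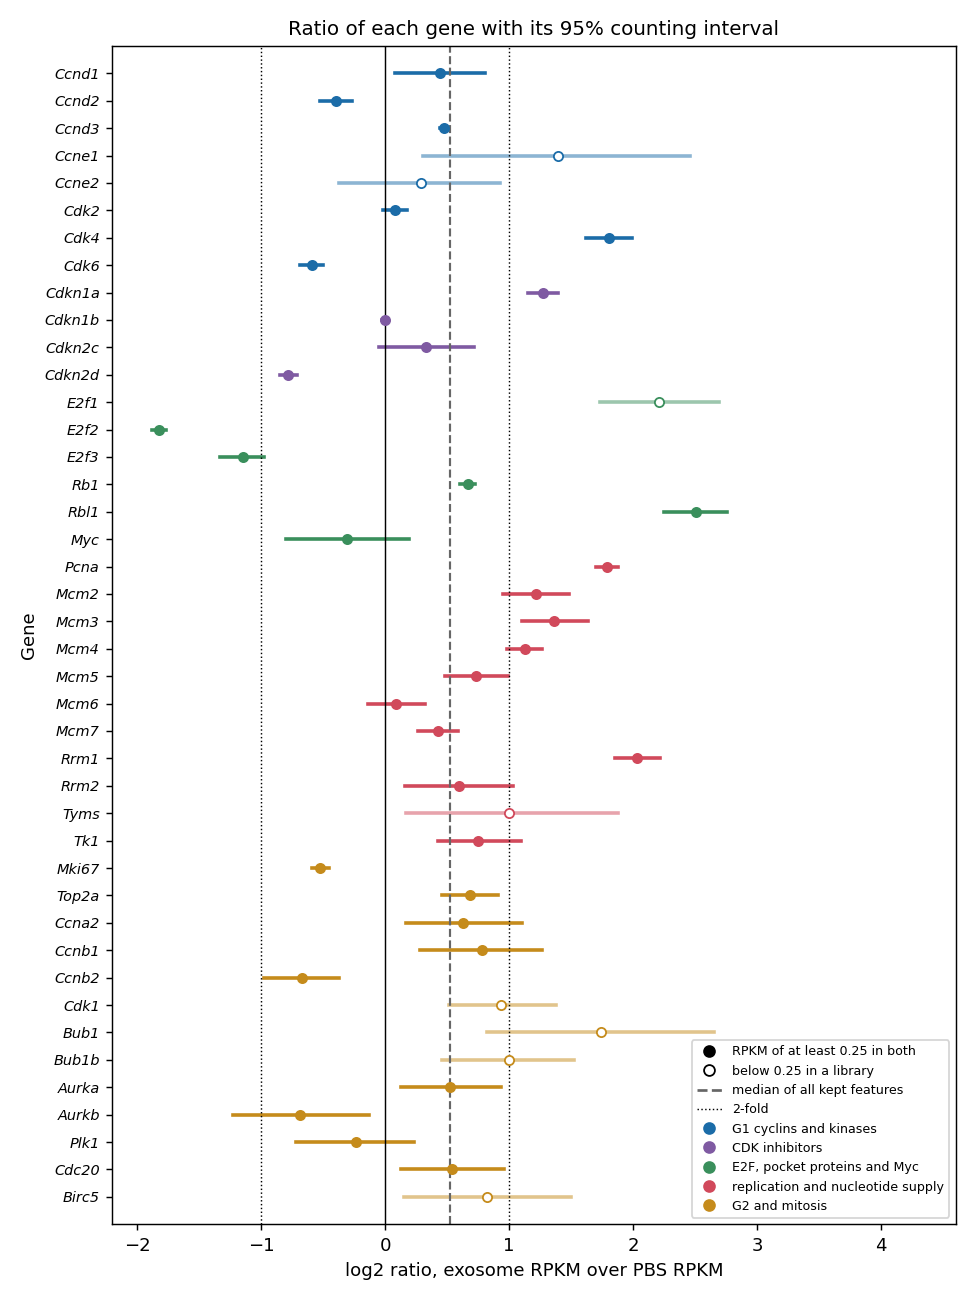
log2 ratio of exosome over PBS RPKM for each of the 42 genes (points) with the 95% counting interval (bars) in 1 library per group; open points mark genes below 0.25 RPKM in a library, whose ratios are drawn but not read in the text, the dashed line the median of all features kept (0.53) and the dotted lines 2-fold. Rbl1, Rrm1, Cdk4 and Pcna lie furthest to the right among filled points and E2f2 furthest to the left, at -1.83.

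The ratio over all features differed with the level of expression, and the genes were therefore also set beside features of like abundance. When the features kept were divided into 10 groups by their mean level, the median log2 ratio was 0.52 in the lowest group, 1.11 in the next one and 0.01 in the highest. Against the median of its own group, 14 of the 34 genes were higher, and the median difference was -0.14. By class the median difference was 0.09 for replication genes, of which 6 of 10 lay above their group, -0.43 for genes of G2 and mitosis and -0.83 for the E2F class. Mcm2 and Mcm3 lay only 0.10 and 0.25 above features of like level, and Mcm6 lay 1.03 below. Pcna lay 1.48 above its group, whose median was 0.31, and Rbl1 1.39 above, whereas E2f3 and E2f2 lay furthest below, at -2.24 and -2.14. Only Pcna and Rbl1 remained 2-fold up on this scale (background 13.3%), and 8 of the 34 genes were 2-fold down (background 13.4%).

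**Figure D5:**
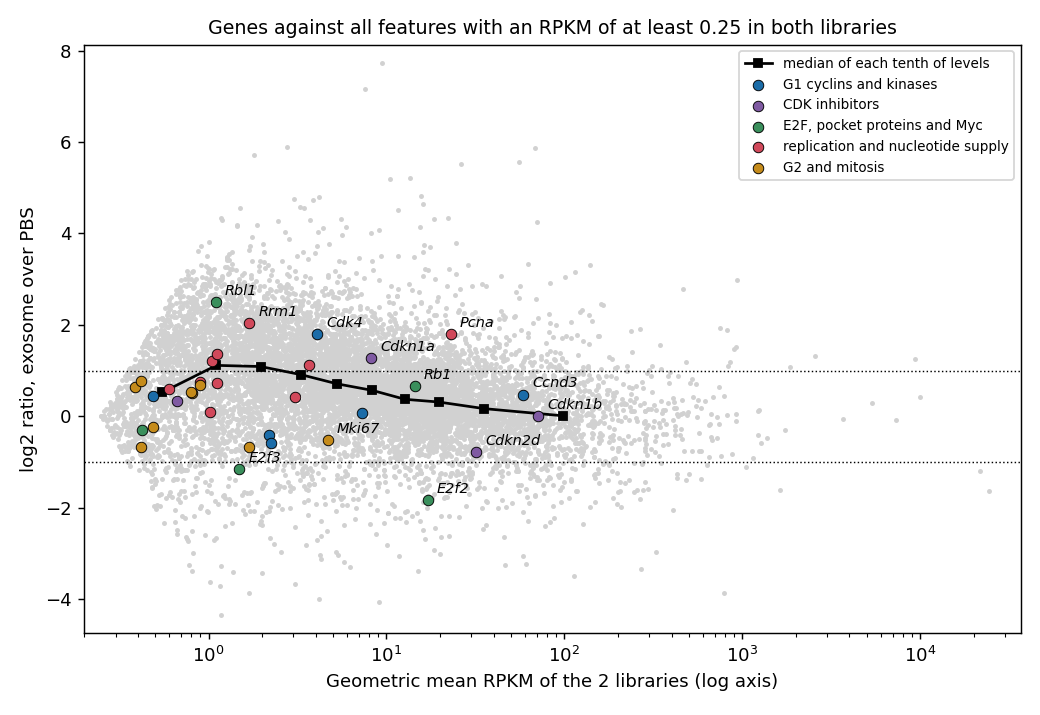
log2 ratio of exosome over PBS against the geometric mean RPKM of the 2 libraries (log axis) for all 9698 features kept (grey) and the 34 measurable genes (coloured by class); black squares are the medians of 10 groups by level and dotted lines mark 2-fold. The median line goes from 0.52 to 1.11 and then down to 0.01 at the highest levels, with Pcna 1.48 above it and E2f2 at -2.14 from it.

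In bulk RNA, fewer cells of a type and less RNA per cell cannot be told apart, and markers of several cell types differed between the libraries alongside these genes. All 10 markers of mature neutrophils were present, 9 of them fell (background 5.62%), and their sum was 83726.6 RPKM in PBS and 30377.0 RPKM with exosomes. The 10 markers of neutrophil precursors, the dividing stage of this lineage, summed to 25.01 and 24.98 RPKM. Of the 7 measurable ones 4 were higher and 3 lower with exosomes (73.0% and 26.8% of all features kept), with log2 ratios from -0.997 to 1.35. Of these 1 rose (14.3%, background 31.5%), namely Prtn3 from 1.14 to 2.90 RPKM, and 0 fell. Of 10 monocyte and macrophage markers 6 were measurable, and 5 of these were higher with exosomes (73.0% of all features kept were). Of the 6, 4 rose (66.7%, background 31.5%) and 1 fell (16.7%, background 5.62%). The other 4 markers were below the minimum and higher with exosomes. All 10 summed to 264.92 and 352.73 RPKM, with Csf1r at 58.1 and 152.64 RPKM. The fallen marker was Ly6c2, the most abundant of these markers in PBS, from 184.41 to 37.12 RPKM. Of 10 T and NK cell markers, whose sum was 58.71 and 8.759 RPKM, 3 were at 0 in PBS and 2 with exosomes, and Cd3d alone stood at 56.44 and 7.02 RPKM. The 8 B cell markers summed to 110.2 and 68.04 RPKM, with Cd79a at 38.25 and 24.44 RPKM. The 8 listed erythroid markers summed to 10.28 and 38.755 RPKM, of which Tfrc, the transferrin receptor that many dividing cells and macrophages carry, was 7.71 and 38.24 RPKM. Of 8 markers of colon epithelium none was measurable in both, 4 were at 0 in PBS and 3 with exosomes, and their sums were 0.67 and 0.245 RPKM. The part of other cell types in the levels of the division genes was not tested.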

How the data were processed

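Total RNA of 1 PBS-treated and 1 exosome-treated culture was made into mRNA libraries by TruSeq and sequenced. The authors trimmed the reads by quality and computed RPKM per feature in CLC Genomics Workbench, and the deposited values are these RPKM, with values above 0.01 rounded to 2 decimals. The submitters' processing notes name mm10. The gene annotation, the handling of reads that match several places, any scaling between libraries and counting by strand are not given in the sources used here. Since RPKM is no count, no count model was fitted, and with 1 library per group no p-value was computed.

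Features that reached 0.25 RPKM in each library were kept, and a ratio of at least 2 or at most 0.5 was called, as in the study. Depth was the commonest total given by values below 0.01 RPKM that stand for 1 read of the longest GENCODE M21 transcript of the same symbol, near which 212 of 918 such values lay in PBS and 265 of 1064 with exosomes. It served only for the 95% exact Clopper-Pearson intervals of the reads. Exon overlaps, pseudogenes and coordinates came from GENCODE M21 (GRCm38), and promoters from RefSeq. The text named all 42 genes, genes of the further lists that changed at least 4-fold (up to 6 a list), and markers. Where 5 or fewer genes of a further list fell, they were named after their values were seen. The genes and lists were chosen with earlier results of these data known. The 9 alternatives were median centring, subtraction of a trimmed mean log ratio (30% of ratios and 5% of levels left out at each end), subtraction of the median of each of 10 groups by level, TPM, 1 RPKM, pseudocounts of 0.25 (2 settings) and 1, and a 4-fold limit. Scripts in Python 3.11.15 with numpy 2.4.6, pandas 2.3.3, scipy 1.17.1 and matplotlib 3.10.9 were tested on simulated data.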

Additional observations from a re-analysis of the deposited data

How the results depend on the processing

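No paired analysis was possible because each group held 1 library, and for the same reason no replicate could be left out. Against the 8 genes risen, 2 fallen and a median log2 ratio of 0.50, median centring gave 4, 7 and -0.029, subtraction of a trimmed mean log ratio gave 4, 7 and -0.045, and subtraction of the median of features of like level (10 groups) gave 2, 8 and -0.14. Over all features kept, centring gave 16.8% risen and 13.2% fallen. The trimmed mean gave 16.4% and 13.6%, and subtraction by like level gave 13.3% and 13.4%. Both centrings took Cdkn1a, Mcm2, Mcm3 and Mcm4 from the risen genes and added Cdk6, Cdkn2d, Mki67, Ccnb2 and Aurkb to the fallen ones. A minimum of 1 RPKM in both libraries kept 16 genes, with 4 risen and 2 fallen (background 25.6% and 5.34%). A pseudocount of 0.25 gave 8 risen genes, with E2f1 added and Mcm2 lost, and 1 fallen gene. This held with a minimum of 0.25 RPKM in either library (background 28.4% and 5.20%) and for all listed features (8.57% and 1.57%). A pseudocount of 1 gave 5 risen and 1 fallen (background 20.4% and 4.12%). A ratio of at least 4 gave 2 risen and 0 fallen (background 8.52% and 1.14%). Rescaling to TPM changed no call (background 33.0% and 5.16%). In each of the 8 alternatives that use a 2-fold limit, Pcna was up and E2f2 was down, which held for no other of the 10 called genes. Rbl1 was lost only under the minimum of 1 RPKM in both libraries, which removed it at 0.46 RPKM in PBS. Of 254 values of single genes under the alternatives 118 moved, which means that they left the counting interval of the gene on the deposited scale. Among the called genes 0 changed sign. Genes within 2-fold could change sign, such as Ccnd3 from 0.47 to -0.05 after median centring. With single libraries, precision beyond counting error is unknown, and the RPKM of genes with overlapping neighbours or pseudogenes depends on counting rules not given here.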

Other observations

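Nucleotide metabolism outside the genes above gave 8 risen (40%) and 1 fallen (5%) of 20 measurable genes of a list of 21, near the 31.5% and 5.62% of all features kept, with a median log2 ratio of 0.30 beside 0.53. Cad, the enzyme that starts pyrimidine synthesis, stood at 0.48 RPKM in PBS and 1.92 RPKM with exosomes, the only gene of that list with a ratio of at least 4. Dck, the salvage kinase for deoxycytidine, was the fallen gene, at 105.77 and 42.7 RPKM.

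Of 25 further brakes of the cycle and relatives of the E2F and pocket proteins, 21 were measurable, and 3 rose and 3 fell (14.3% each, beside 31.5% and 5.62% of all features kept), with a median log2 ratio of 0.17. The fallen genes, named after their values were seen, were among the more abundant of the list. Btg1, an antiproliferative factor, stood at 375.82 and 143 RPKM, Ccng2, a cyclin of resting cells, at 61.18 and 20.66 RPKM, and Tfdp1, the partner that E2F factors need to bind DNA, at 58.8 and 24.61 RPKM. E2f6, a repressor of the family that lacks the activation domain, stood at 0.54 and 2.63 RPKM, a ratio of 4.87.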
